A study of Arabidopsis thaliana with 18 samples.

Results

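Roots of the Arabidopsis ecotype Col-0 (Columbia) from plates slanted backward were compared directly with Col-0 roots from plates slanted forward, with 3 arrays of each, which are 6 of the 18 arrays of the series. The arrays were taken by their labels alone and the upright arrays were kept out of the difference. Both groups were wild type plants that carried no transgene, were 8 days old, had stood upright (angle of the growth plate, Agp, 90°) for 3 days on solid MS medium in continuous light, and had then spent 5 days tilted 45° from the vertical. At Agp 45° the plate leaned backward and the plants were above the surface of the medium, and at Agp 135° it leaned forward and they were below it, so the direction of tilt was the only difference that the labels give. The series also holds 3 arrays of upright Col-0 roots, grown upright for all 8 days, and 3 arrays of the ecotype WS (Wassilewskija) at each of the 3 angles. Each array carried the RNA of 5 whole roots cut from their shoots. The labels do not say whether the 3 arrays of a group came from separate plates, so the p-values measure only the spread between these arrays, and their number limits the precision.

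When a root tip grows on a hard slanted surface, gravity presses it against the surface, and the tip makes side to side waves or drifts to one side, which is called skewing. Work on mutants has tied these patterns to the cortical microtubules, which guide how cell walls are laid down, to wall proteins such as SKU5, and to auxin, the hormone that carries the gravity response. Expansins and xyloglucan endotransglucosylase/hydrolases loosen and remodel the wall during growth, and SWEET proteins carry sugars across membranes. Col-0 is known as an ecotype that waves on plates leaned backward while it skews little, and WS as one that does both. At a forward tilt of the same size the plants hang below the medium, and the comparison asks which transcripts follow the direction of tilt when its size and duration are the same.

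The groups were alike as a whole. Across all probe sets the log2 signals of array pairs correlated at r from 0.991 to 0.992 within the backward group, from 0.989 to 0.992 within the forward group and from 0.990 to 0.991 between the groups. A sign of RNA quality, the actin signal at the 3′ end over that at the 5′ end, was 4.05 to 4.33 in the backward arrays and 3.86 to 4.41 in the forward arrays. Of the marker lists for root cell types, those for dividing cells, root cap, phloem, xylem and endodermis had 0 genes with a named probe set, so the tissue could be checked on few genes. The root hair expansins EXPA7 and EXPA18 were well detected, with signals of 399 to 589 and 652 to 1072 over the 6 arrays. The 8 measured photosynthesis genes, which mark green tissue, had summed signals of 3667 to 5842 in the backward arrays and 3025 to 5217 in the forward arrays. In whole roots, fewer cells of a type and less RNA per cell cannot be told apart.

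Few transcripts separated the directions, and none passed the adjusted test. Means of the 6 groups (ecotype by angle) were fitted with limma to log2(signal + 32), and each difference is given as backward minus forward on that scale. At an absolute log2 difference over 1 and an unadjusted p under 0.05, the thresholds of the study's methods, 7 probe sets were higher and 4 were lower in the backward roots (11, or 0.0484% of 22746). After Benjamini-Hochberg adjustment in limma 0 were called (0.0%), and the smallest adjusted p was 0.145. The unadjusted limma p was under 0.05 for 932 probe sets (4.1%), of which 430 were higher and 502 lower. With no change at all 1137 would be expected, so this count is not above that. The 3 arrays of each group did not overlap for 2212 probe sets (9.72%), near the share that a random order of the 6 arrays would give. The median difference over all probe sets was 0.00 and the median standard error 0.14. Everything named below is therefore a difference in level that did not pass the adjusted test in Col-0. Its size depends on the pseudocount: with 1 in place of 32 the study's thresholds took 349 probe sets, and with 100 they took 2.

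Among the genes with larger signals that were higher in backward roots, 3 are neighbours. AT1G52050, AT1G52060 and AT1G52070 follow each other on chromosome 1 with no other annotated gene between them. AT1G52060, annotated as a root-expressed protein of the endomembrane system, had signals of 522, 783 and 664 in the backward arrays and 319, 320 and 236 in the forward arrays. Its lowest backward array lay well above its highest forward array, and the log2 difference was 1.09 ± 0.23 (SE, n = 3 arrays per group, adjusted p = 0.374). AT1G52050 read 485, 431 and 533 in the backward and 313, 292 and 245 in the forward arrays, again with no overlap (0.71 ± 0.17, adjusted p = 0.513). AT1G52070 read 1114, 1294 and 1295 against 851, 820 and 606 (0.70 ± 0.21, adjusted p = 0.871). All 3 neighbours were higher in every backward array than in any forward array. The 15 genes named in each direction were chosen among those without overlap, so their lack of overlap is not a finding. Near-identical neighbours can share probes, and how far the probe sets of these genes are distinct was not tested.

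Other genes outside the dimmest 40% were higher as well. AT3G19430, a gene related to late embryogenesis abundant proteins and annotated as a structural part of the wall, read 226, 273 and 258 in the backward roots and 145, 123 and 70.7 in the forward roots. The forward arrays were all lower and more spread, and the difference was 0.99 ± 0.26 (adjusted p = 0.625). AT1G50060, a putative pathogenesis-related protein of the extracellular region, read 435, 407 and 454 against 290, 242 and 178 (0.81 ± 0.23, adjusted p = 0.772). AT5G60530 (272, 306 and 324 against 222, 138 and 147) and AT5G54370 (1078, 1009 and 1226 against 876, 736 and 493) were also higher in every backward array, by 0.75 ± 0.22 and 0.67 ± 0.24. In 6 of these 7 genes, all but AT5G60530, the third forward array was the lowest of the 6 arrays. Without that array the differences of the 6 genes ran from 0.45 for AT5G54370 to 0.96 for AT1G52060.

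The remaining 8 of the 15 genes with the largest differences in this direction were among the 40% dimmest probe sets of the series. AT3G05730, which encodes a defensin-like protein, had the largest difference of the 15, 1.26 ± 0.30 (adjusted p = 0.513). Its signals were 46.0, 111 and 99.6 in the backward arrays and 27.4, 14.1 and 5.17 in the forward arrays, so all 3 forward values lay below the pseudocount. AT1G49570 was the least even, with 273, 152 and 85.2 against 63.1, 36.0 and 53.3 (1.17 ± 0.43). AT4G10270, from a list of hypoxia genes, read 82.8, 104 and 115 against 26.6, 28.8 and 45.6 (0.98 ± 0.35, adjusted p = 1.0). The other measured genes of that list, AT5G10040 and AT3G10040, were at -0.11 ± 0.20 and 0.14 ± 0.28. AT5G24070 was at 53.7, 78.9 and 56.0 in the backward arrays, each above the forward values of 32.7, 29.6 and 15.3. AT1G27285, AT5G19270, ATA27 (BGLU20, a beta-glucosidase) and AT5G61520 had no backward signal above 44.0 and no forward signal above 13.6. The probe set with the smallest p in the comparison, AT4G05610, chosen after its values were seen, was of this kind too: its backward mean was 12.3 and its forward mean 1.40. At such levels a log2 difference depends on the pseudocount, and the difference of AT4G05610 was 0.46 ± 0.07 with 32 and 2.54 with 1.

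**Figure D1:**
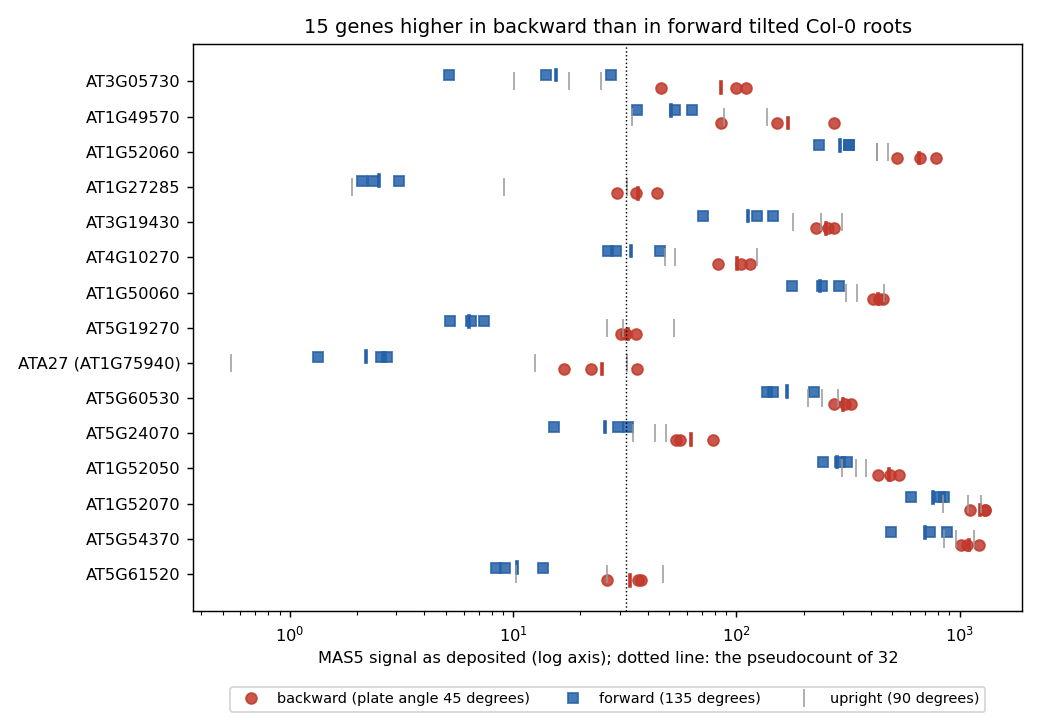
Signal of the 15 genes with the largest higher value in backward tilted Col-0 roots, on a log axis, with 1 point per array (circles backward, squares forward, grey ticks upright) and a short bar at each tilted group's mean of 3 arrays. For each of the 15 genes the backward and forward arrays do not overlap, which was a condition of their choice. AT1G52060, AT1G52070 and 6 others lie to the right of the dotted line in all 6 tilted arrays, and each of the rest has a forward signal left of it.

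Of the genes lower in backward roots, AT2G16005 had the largest difference. It read 1410, 1282 and 1134 in the backward arrays and 3177, 2448 and 2643 in the forward arrays, means of 1275 ± 138 and 2756 ± 377 (SD, n = 3). Every forward array was above every backward array, and the log2 difference was -1.11 ± 0.33 (adjusted p = 0.835). The upright arrays spread across both groups at 2601, 3334 and 919, and they enter the shared estimate of error. With the 12 tilted arrays alone in the limma fit, the difference was -1.11 and its adjusted p 0.0242, the only call of that fit.

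AT1G14960, a gene of the major latex protein family, which is linked to defence, was next. It read 332, 455 and 400 in the backward roots and 1090, 706 and 724 in the forward roots, with no overlap (-1.02 ± 0.21, adjusted p = 0.360). AT5G38020 read 823, 701 and 500 against 1266, 1091 and 959 (-0.71 ± 0.15, adjusted p = 0.374). AT5G37990, chosen after its values were seen because it lies close to AT5G38020 on chromosome 5, read 1293, 1028 and 1071 against 2180, 1659 and 1514 (-0.64 ± 0.14). In the annotation the stretch from AT5G37990 to AT5G38020 holds 6 genes, and both end genes were lower in every backward array. AT5G04120 was at 47.9, 38.3 and 39.9 in the backward arrays and at 165, 79.5 and 107 in the forward arrays (-0.91 ± 0.32).

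A pair of genes with annotated functions, also chosen after their values were seen, had the same direction. AT1G72140 encodes NPF5.12, a transporter of the NRT1/PTR family. It read 201, 221 and 181 in the backward arrays and 387, 322 and 302 in the forward arrays (-0.65 ± 0.12, adjusted p = 0.249). AT5G44400, a FAD-binding protein of the berberine family, read 421, 352 and 333 against 632, 622 and 564 (-0.68 ± 0.23, adjusted p = 1.0). Both genes were lower in all 3 backward arrays. The forward arrays of AT1G72140, from 302 to 387, were about as far apart as the gap below them, from 221 to 302.

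The other 11 of the 15 genes lower in backward roots were in the dimmest 40%. AT1G31750 read 3.56, 4.27 and 10.1 in the backward arrays and 30.3, 44.4 and 38.4 in the forward arrays (-0.89 ± 0.17, adjusted p = 0.249). AT3G46170 was at 5.84, 12.7 and 4.44 against 50.2, 38.6 and 43.7 (-0.93 ± 0.20), and AT5G28590 at 15.8, 37.0 and 7.59 against 71.1, 70.5 and 63.8 (-0.93 ± 0.18). As signals, the forward arrays were more spread in AT1G31750 (SD 7.09 against 3.58 backward) and AT3G46170 (5.81 against 4.41). In AT5G28590 the backward arrays were more spread (15.2 against 4.05 forward). Without the second backward array AT5G28590 reached an adjusted p of 0.0336. AT2G20250, AT1G35030, AT3G43630, AT2G07300, AT5G27020, AT2G23040, AT3G09380 and AT1G35640 made up the rest, with log2 differences from -0.69 to -0.86 and forward signals from 14.3 to 75.5.

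**Figure D2:**
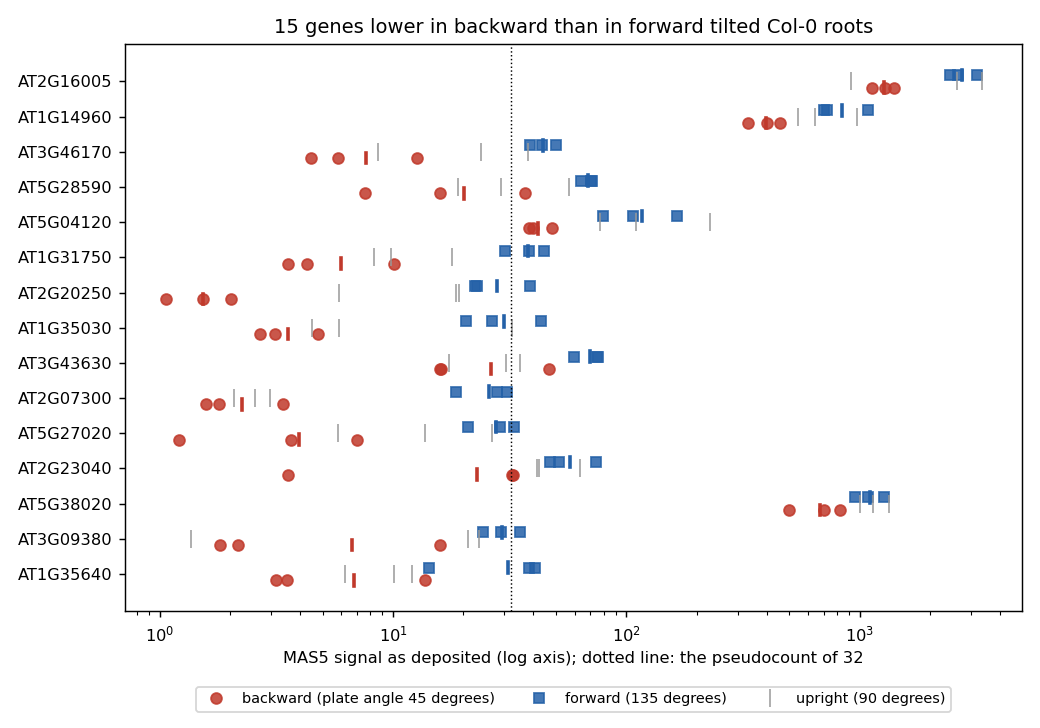
Signal of the 15 genes with the largest lower value in backward tilted Col-0 roots, drawn as in the plot of genes that were higher. AT2G16005, AT1G14960 and AT5G38020 lie far above the pseudocount of 32 in all 6 tilted arrays. Most of the others have backward signals below 32. The groups do not overlap in any of the 15, which was a condition of their choice.

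Of the 11 probe sets past the study's thresholds, 8 have a single gene name. They are AT3G05730, AT1G49570, AT1G52060, AT1G27285, AT2G16005, AT1G14960, SWEET11 and AT1G43590. SWEET11, a sugar transporter that moves sucrose out of cells, had the largest higher value, 1.39 ± 0.58 (adjusted p = 1.0), yet its groups overlapped. It read 626, 1013 and 874 in the backward arrays and 169, 161 and 860 in the forward arrays, so 1 forward array was as high as the backward ones. AT1G43590 overlapped too, at 92.5, 251 and 283 against 2.99, 153 and 116. The 3 probe sets without a gene name were 252415_at, 261428_at and 266799_at. 252415_at, the largest lower value in the table, read 50.8, 41.8 and 13.1 in the backward arrays and 118, 193 and 208 in the forward arrays (-1.56 ± 0.28, adjusted p = 0.249). 261428_at read 170, 145 and 104 against 470, 237 and 292 (-1.05 ± 0.19). Both were lower in every backward array.

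The upright Col-0 arrays are given as a description for some of these genes. Since the genes were chosen for a large gap between the tilted groups, an upright level inside that gap is not a finding. For AT1G52060 the upright arrays read 425, 427 and 477, between the highest forward and the lowest backward array. The gene AT1G14960 was at 975, 642 and 543 upright, which overlapped the forward arrays and lay above the backward ones. AT1G72140 read 401, 311 and 329 upright, like the forward arrays, and AT1G50060 read 348, 309 and 459, which reached the backward arrays. The differences of the tilted groups from upright share the 3 upright arrays and were not compared with each other.

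The WS arrays, which share none with Col-0, gave a second view of the same tilt difference. The fit gave each probe set the same standard error in both ecotypes. The p-values of the ecotypes are therefore not independent, and the shares of all probe sets are only a rough guide. Of the 15 genes higher in backward Col-0 roots, 13 had the same sign in WS, 9 had an unadjusted limma p under 0.05 there (4.74% of all probe sets had one in the higher direction) and 7 an adjusted p under 0.05 (0.101%). The 7 were AT1G52050, AT1G52060, AT1G52070, AT3G19430, AT1G50060, AT5G60530 and AT5G24070. AT3G19430 differed by 1.62 in WS (adjusted p = 0.0137), AT1G50060 by 1.58 (adjusted p = 0.00895) and AT1G52060 by 1.34 (adjusted p = 0.0210). All 7 genes outside the dimmest 40% had the same sign and an unadjusted p under 0.05 in WS, against 2 of the 8 dim ones. AT3G05730, the largest of the 15 in Col-0, was at -0.28 in WS.

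On the lower side 12 of the 15 genes had the same sign in WS. There 4 had an unadjusted p under 0.05 (background 5.12% in the lower direction) and 2 an adjusted p under 0.05 (0.255%). AT1G14960 was at -1.64 in WS (adjusted p = 0.00353), further from 0 than in Col-0, and AT1G31750 at -1.04 (adjusted p = 0.0138). AT5G38020 was alike in both ecotypes, at -0.71 and -0.68. AT2G16005 was at -0.42 in WS (adjusted p = 0.747), although its WS groups did not overlap. The probe set 252415_at differed by -3.33 in WS (adjusted p = 7.13e-05). Of the genes chosen after their values were seen, AT1G72140 was at -0.80 (adjusted p = 0.00891) and AT5G37990 at -0.80 (adjusted p = 0.0166) in WS.

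Taken the other way, 81 probe sets passed the adjusted p in WS, and 63 of them (77.8%) had the same sign in Col-0. Of the 81, 28 (34.6%) also had an unadjusted p under 0.05 in Col-0, where 4.1% of all probe sets had one, and 0 had an unadjusted p under 0.05 with the opposite sign. The sizes differed: the 58 that were lower in WS had a median of -0.92 there and -0.27 in Col-0, and the 23 that were higher had 0.90 and 0.18. All 51 of these probe sets with a single gene name were nearer 0 in Col-0 than in WS. They were chosen for their values in WS, so their WS values are larger by that choice. A small shared standard error also favours a small p in both ecotypes, so the 4.1% of all probe sets is not an equal comparison.

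Of the 51 genes chosen on the WS arrays, 22 had the same sign and no overlap in Col-0 and 1 the opposite sign and no overlap, where 9.72% of all probe sets had no overlap in either direction. AT4G11190, the dirigent protein DIR13, read 1876, 1762 and 1428 in the backward Col-0 arrays and 2500, 2173 and 2050 in the forward ones (-0.42 ± 0.15). AT3G26460 read 507, 500 and 447 against 727, 690 and 774 (-0.57 ± 0.14), and AT4G29270 read 2141, 1899 and 1932 against 2698, 2608 and 2610 (-0.41 ± 0.12). AT5G26260, a TRAF-like protein, was at 1056, 1109 and 1293 against 1750, 1360 and 1683 (-0.46 ± 0.21). The backward arrays of all 4 genes were below every forward array, with the narrowest gap in AT5G26260. Others were not separated: AT1G15330, at -0.97 in WS, read 59.5, 64.4 and 73.5 against 49.5, 77.4 and 76.6 in Col-0 (0.00 ± 0.16).

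Across all 22746 probe sets the differences of the ecotypes correlated at r = 0.14, and at r = 0.27 over the 13647 outside the dimmest 40%. These are descriptions across probe sets, which are not independent. The signs were the same for 53.0% of all probe sets, for 61.4% of the 932 with an unadjusted p under 0.05 in Col-0, and for 68.5% of the 460 of those outside the dimmest 40%. Whether a difference itself differed between the ecotypes was tested with the interaction of ecotype and tilt direction. Its unadjusted limma p was under 0.05 for 1265 probe sets (5.56%), and 0 passed the adjusted test (0.0%, smallest adjusted p 0.440). No gene named here is therefore shown to respond to the direction in one ecotype alone.

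**Figure D3:**
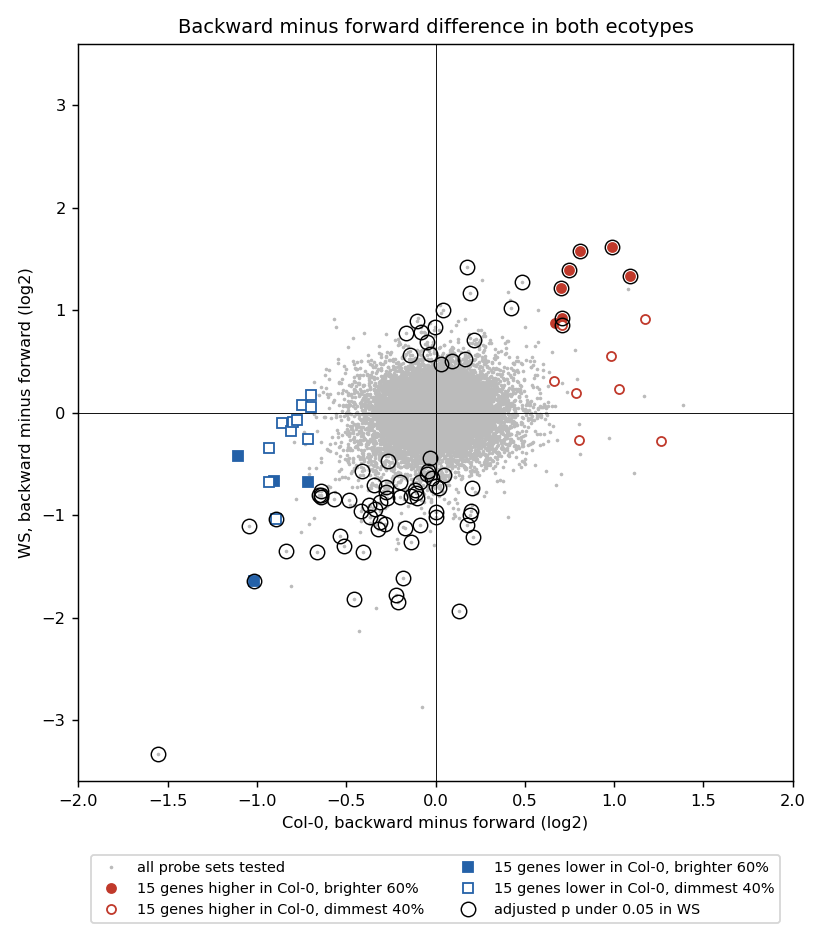
Backward minus forward difference of each of the 22746 probe sets in Col-0 (horizontal, log2) and WS (vertical, log2), with the 15 genes higher and the 15 lower in Col-0 filled where they are outside the dimmest 40% of probe sets and open where they are in it. Circles mark the 81 probe sets past the adjusted p in WS, and the filled genes higher in Col-0 all lie at positive WS values.

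The gene lists for growth, sugar and stress held few genes with different levels. Of 122 distinct genes with a named probe set in the pathway and cell type lists, 59 were higher and 63 lower, and 4 of the higher and 5 of the lower had an unadjusted p under 0.05 (7.38%, against 4.1% of all probe sets). None passed the adjusted test in limma. The lists were written with earlier results of these data known.

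Expansins stood mostly on the lower side. Of 15 measured members 13 were lower in backward roots, as were 11316 of all 22746 probe sets. The median of the 15 was -0.11, with values from -0.36 to 0.05, while all probe sets had a median of 0.00 and a median standard error of 0.14. Only EXLA1, an expansin-like protein, had an unadjusted p under 0.05. It read 554, 415 and 462 in the backward arrays and 573, 602 and 683 in the forward arrays, without overlap (-0.36 ± 0.13, adjusted p = 1.0). The expansins EXPA4 (4886 ± 560 against 5486 ± 683) and EXPA15 (4271 ± 460 against 4797 ± 580) overlapped between the groups. In WS the median of the 15 was -0.12. Of the 10 xyloglucan endotransglucosylase/hydrolases 5 were higher and 5 lower, and XTH29, which was dim, was the only one with an unadjusted p under 0.05 (20.6, 26.6 and 20.6 against 13.2, 1.28 and 3.81).

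Microtubule genes were close to equal apart from SP1L2. The 13 tubulins and microtubule-associated proteins had a median of -0.04. SP1L2, a member of the SPIRAL1 family that acts on cortical microtubules, read 540, 357 and 408 in the backward arrays and 666, 729 and 626 in the forward arrays (-0.62 ± 0.25, adjusted p = 1.0). Its upright arrays were above both groups at 930, 1093 and 1823, and its WS difference was -0.75. SPR1 itself was at -0.04 ± 0.08, and the tubulin TUB6 at -0.15 ± 0.07. Of SKU5 and its relatives 4 were measured, 0 with an unadjusted p under 0.05, and the median was 0.27, against 0.42 in WS. SKU5 itself was at 0.04, and sks15 read 238, 294 and 284 in the backward and 203, 247 and 121 in the forward arrays, with overlap (0.49 ± 0.26), and was at 1.28 in WS (adjusted p = 0.0475).

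Auxin and touch genes showed no common direction. Of 13 auxin genes 7 were higher and 6 lower, with a median of 0.00, 0 with an unadjusted p under 0.05 and values from -0.30 for IAA34 to 0.30 for IAA30. The 6 touch genes had a median of 0.01, and the single gravitropism gene with a named probe set was at -0.09. The 3 measured markers of lateral root founder cells, PUCHI, LBD29 and LBD16, were all a little higher in backward roots, by 0.25 ± 0.13, 0.21 ± 0.14 and 0.19 ± 0.13, with 0 at an unadjusted p under 0.05. In WS they were at -0.38, -0.05 and -0.15. The arrays of LBD16 overlapped, and PUCHI read 143, 133 and 151 against 106, 124 and 113.

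Sugar genes differed in single members. Of 10 genes for sugar transport and cleavage 6 were higher and 4 lower, with a median of 0.03. TMT1, which loads sugars into the vacuole, read 3318, 3295 and 3020 in the backward arrays and 3382, 3676 and 3688 in the forward arrays, a small gap without overlap (-0.17 ± 0.08). The 7 genes of sugar starvation and darkness, among them the leucine breakdown genes IVD, MCCA and MCCB, had a median of -0.09 and 0 with an unadjusted p under 0.05. Among stress genes, the mitochondrial heat shock protein AT1G52560 (HSP26.5) read 212, 95.1 and 106 against 199, 149 and 274 (-0.51 ± 0.23), with overlap, and was at -1.31 in WS (adjusted p = 0.0191). Of 11 tau glutathione transferases, detoxifying enzymes, 6 were higher and 5 lower. GSTU20 was higher in every backward array (2023, 2073 and 2070 against 1674, 1578 and 1902), by 0.27 ± 0.13. GSTU18 was lower in every one (230, 247 and 222 against 286, 299 and 306), at -0.30 ± 0.14. The signals of GSTU27 (0.18 ± 0.10) and GSTU26 (-0.26 ± 0.17) did not overlap either. Of all probe sets 9.72% had no overlap. The 8 photosynthesis genes had a median of 0.13, with 7 higher, and the 5 iron deficiency genes one of -0.07.

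**Figure D4:**
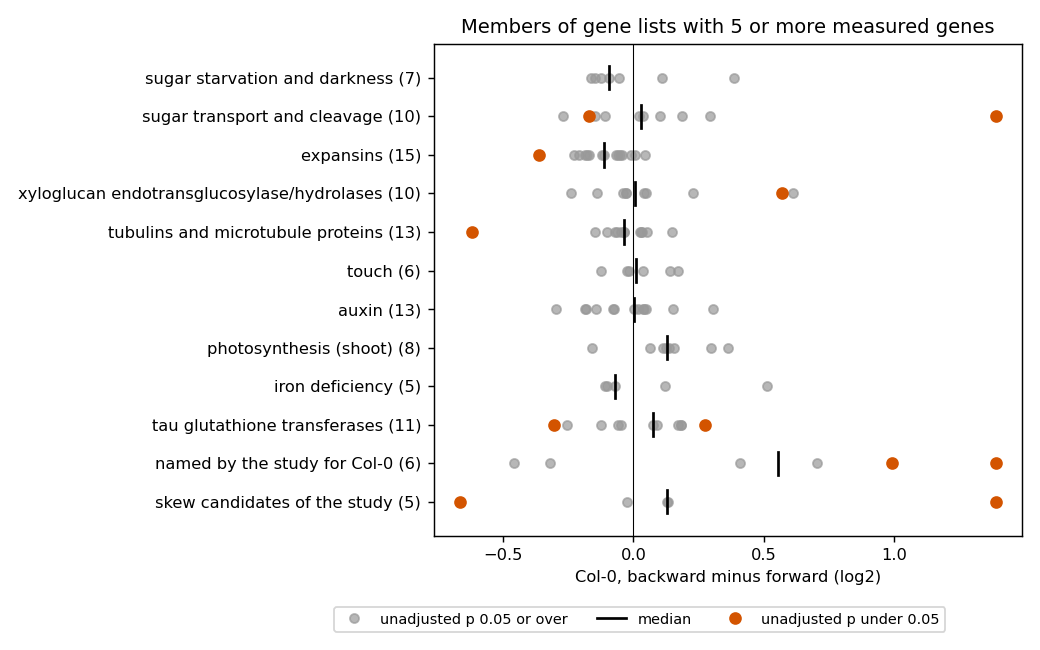
Backward minus forward difference in Col-0 (log2) of each member of the gene lists with 5 or more measured genes, the number of which stands in brackets, with a bar at each list's median and orange points for an unadjusted p under 0.05. The expansins lie mostly below 0, and SWEET11 stands apart from the rest of its lists at 1.39.

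Of the genes that the study singled out and that have a named probe set, AT3G19430 and AT2G25150 had no overlap between the directions in Col-0, and the others overlapped. Of all probe sets 9.72% had no overlap, so these cases are not read as a result. AT3G19430 is also among the 15 genes chosen for having none. The study drew up these lists from the same arrays, so they are not independent evidence. Of 13 genes named for Col-0, 6 have a named probe set. AT3G19430 and SWEET11 are described above. HIS1-3, a linker histone induced by dehydration, read 634, 702 and 526 in the backward arrays and 263, 286 and 637 in the forward arrays (0.70 ± 0.46). The third forward array of HIS1-3 was as high as the backward ones, as it was for SWEET11. AT4G12490, a pEARLI1-like lipid transfer protein, was at -0.32 ± 0.30, OCT1 at -0.46 ± 0.40 and AT1G09310 at 0.41 ± 0.37, each with overlap.

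Of the 11 skewing candidates of the study 5 have a named probe set, and the others, such as ASN1 and HKT1, are not covered here. AT2G25150, a transferase of acyl groups, was the only one of the 5 besides SWEET11 with an unadjusted p under 0.05, which 4.1% of all probe sets had. It read 37.3, 28.4 and 38.7 in the backward arrays and 101, 73.8 and 64.4 in the forward arrays, with no overlap (-0.66 ± 0.15, adjusted p = 0.513), and was at -1.36 in WS (adjusted p = 0.00170). AT5G66780 was at 0.13 ± 0.31 in Col-0 and -1.93 in WS (adjusted p = 0.0137), and its interaction had an adjusted p of 0.440. SIS, a gene of salt tolerance, was at 0.13 in Col-0 and -1.03 in WS, and AT3G28310 at -0.03 and -0.87. The Col-0 signals of AT3G28310 were 0.832 to 2.87 in all 6 tilted arrays, so on the scale with a pseudocount of 32 its Col-0 difference could not be far from 0. In Col-0 the arrays of these 3 genes overlapped between the directions.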

How the data were processed

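The authors deposited MAS5 signals (intensity, linear scale) of 22810 ATH1 probe sets from Affymetrix Expression Console, version not given in the sources used here. The trimmed mean of every array is 500, so the authors' scaling between arrays is already included. The study's own tests used RMA values, which were not used here. For this comparison 32 was added to each signal, log2 taken, arrays quantile normalized and 64 control probe sets dropped, which left 22746. A group mean for each of 6 groups was fitted to 18 arrays with limma 3.58.1 in R 4.3.3 (12 residual and 3.45 prior degrees of freedom), and p-values are two-sided and adjusted by Benjamini-Hochberg over all probe sets. Signals printed are as deposited. The signals' floor matters: 24.9% to 25.9% of values in the 6 arrays were below 32, and a fold there is understated.

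Of the probe sets tested, 13513 have 1 gene name, 503 several and 8730 none here. Neighbours were read from RefSeq (TAIR10.1). Genes named are, in each direction, the 15 with the largest difference among those with an unadjusted p under 0.05 and no overlap between arrays, list members with an unadjusted p under 0.05 and the genes the study names. Others are said to be chosen after seeing values, or come from the WS calls or lists. Members and lists were chosen with earlier results of these data known. The fit was tested on simulated arrays. Replicate numbers do not pair the arrays (residual r of same-numbered pairs -0.05, 0.06 and -0.08). Alternatives were the deposited scale, pseudocounts of 1 and 100, no dim probe sets, an intensity trend, 6 or 12 arrays, a replicate block and each array left out.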

Additional observations from a re-analysis of the deposited data

Results flagged for a closer look

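For 2 of the named features the arrays did not overlap in either ecotype and stood in opposite orders. Others with opposite signs, such as AT3G05730, overlapped in at least 1 ecotype. For 266799_at, a probe set without a gene name, the Col-0 arrays read 228, 469 and 150 backward and 78.4, 88.8 and 138 forward, while the WS arrays read 209, 190 and 223 backward and 339, 253 and 438 forward. The backward arrays were all higher in Col-0 and all lower in WS, and the interaction of ecotype and tilt direction was 1.70 (adjusted p = 0.512 in limma). AT3G61700 behaved likewise at dim signals, with 23.4, 26.4 and 12.9 against 3.80, 2.93 and 3.95 in Col-0 and 3.05, 2.32 and 3.90 against 13.8, 20.7 and 35.4 in WS. Its interaction was 1.19 (adjusted p = 0.440), and it was chosen after its values were seen. Neither passed the adjusted test, and 104 of all 22746 probe sets stood in opposite orders without overlap in this way.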

How the results depend on the processing

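The 11 probe sets past the study's thresholds became 349 with a pseudocount of 1, 2 with one of 100 and 7 without the 40% dimmest probe sets, and ranged from 6 to 15 when each array was left out in turn. The low end came without the first forward array and the high end without the third. The 0 past the adjusted p became 1 with the 12 tilted arrays (AT2G16005, adjusted p = 0.0242) and ranged from 0 to 2 over the arrays left out, with the 2 (AT5G28590, adjusted p = 0.0336, and AT2G15140, adjusted p = 0.0210) without the second backward array. The 932 at an unadjusted p under 0.05 became 543 without the dimmest probe sets. With the replicate block the counts were 11 and 0 and the smallest adjusted p 0.152, so the block changed no call. Over 55 named features, 741 of 743 alternative values stayed short of the adjusted p, as in the text, and the 2 that passed it are those of AT2G16005 and AT5G28590. SIS, AT5G66780 and AT3G28310, all near 0, changed sign when an array was left out (-0.13, -0.14 and 0.01). The intensity trend, the deposited scale and the fit of the 6 arrays gave 11 or 12 probe sets past the study's thresholds and 0 past the adjusted p. Signals below 32, arrays of pooled roots and 3 arrays per group limit what can be detected.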

Other observations

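In 104 of 22746 probe sets the backward and forward arrays did not overlap in either ecotype and stood in opposite orders. A random order of the arrays in each ecotype would give a similar share. AT2G15140, chosen after its values were seen, had an adjusted p of 0.0210 in limma without the second backward array, and its mean signals over all 3 arrays of a group were 20.5 backward and 1.82 forward, below the pseudocount. SWEET11 and HIS1-3 read 860 and 637 in the same forward array, inside the range of the backward arrays, and without it their log2 differences were 2.12 and 1.08. Those were the highest values over the arrays left out. The lowest were 1.02 for SWEET11 without the second forward array and 0.48 for HIS1-3 without the first.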
